A study of Mus musculus with 16 samples.

Results

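The TNF superfamily pairs a set of trimeric ligands with a set of cell surface receptors, and it was followed here through RNA-seq libraries of bone endothelial cells. The members were taken by name, as all genes with a Tnfsf or Tnfrsf number plus Tnf, Lta, Ltb, Ltbr, Fas, Fasl, Cd40, Cd40lg, Cd27, Cd70 and Ngfr. This rule gave 42 genes, 17 ligands and 25 receptors, out of 38926 gene names in the tables of bone regions and of Lats2 and 21603 Ensembl genes in the Yap1/Taz libraries. All 16 libraries came from C57BL/6 mice and from endothelial cells sorted from bone.

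Regional libraries comprised 3 of metaphyseal ECs (mpECs) and 3 of ECs from the marrow of the bone shaft (bmECs), labelled wildtype and, per the methods, sorted at the age of 3 weeks from mice with the endothelial reporter Cdh5-mTnG. Loss of Yap1 and of Taz, which is the gene Wwtr1, was addressed with 3 libraries labelled Yap1flx/flx; Wwtr1flx/flx with Cdh5CreERT2 positive, called Yap1/Taz iECKO here, and 3 of the same floxed genotype that were Cdh5CreERT2 negative, all at postnatal day 21. Loss of Lats2, a kinase that restrains YAP and TAZ, was addressed with 2 Lats2flx/flx libraries that were Cdh5CreERT2 positive, called Lats2 iECKO here, and 2 that were negative. Their labels give no age, and the methods give 3 weeks for all bones sorted. Controls of both mutants therefore carry the floxed alleles without Cre, and the Cre acts in cells that use the Cdh5 promoter after tamoxifen, whose timing is not given for single libraries. Replicates were biological per the methods, though the labels do not tie single libraries to animals.

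Ligands of this family bind as trimers and bring receptor tails together. Receptors with a death domain, such as Tnfrsf1a and Fas, can recruit caspase 8, whereas most others bind TRAF adaptors and activate NF-kB and JNK. In endothelium the family is known for the response to TNF, which induces adhesion molecules for leukocytes, and for lymphotoxin, CD40 and TWEAK signals. In bone, RANKL (Tnfsf11), its receptor RANK (Tnfrsf11a) and the decoy osteoprotegerin (Tnfrsf11b) control osteoclasts, and in marrow BAFF (Tnfsf13b) and its receptors keep B cells alive.

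Values are FPKM, that is, fragment counts divided by the length of the gene and by a factor for each library, whose definition is not given. Reads recovered from them numbered 11111676 to 14741385 per mpEC or bmEC library, 4885836 to 7160551 per Yap1/Taz library and 4729862 to 7067108 per Lats2 library. Effects are given as the log2 fold change (log2FC) of FPKM + 1 from limma, a linear model across all tested genes, with its standard error (SE), and a gene passed the test at a Benjamini-Hochberg adjusted p under 0.05. Endothelial markers were high in all libraries, with Cdh5, Pecam1, Kdr, Tek, Emcn, Erg, Tie1 and Flt1 summing to 821.0 to 1035 FPKM in mpECs and bmECs, 408.9 to 559.4 FPKM in the Yap1/Taz libraries and 1361 to 1529 FPKM in the Lats2 libraries. Markers of B cells, neutrophils and red cells were also present in all of them. Neutrophil markers summed to 9430 to 27725 FPKM in mpECs and bmECs. That sum was 1631 to 3820 FPKM in the Yap1/Taz libraries and 702.9 to 2873 FPKM in the Lats2 libraries. Red cell markers summed to 17696 to 37745, 3297 to 4946 and 145.3 to 2553 FPKM in the same order. Levels of members are therefore those of the sorted samples as a whole. The genotype labels were checked with the targeted genes. Wwtr1 stood at 10.0, 9.88 and 10.3 FPKM in the Yap1/Taz controls and at 15.3, 19.6 and 19.5 FPKM in the libraries labelled Yap1/Taz iECKO, with a log2FC of 0.78 (SE 0.12, adjusted p = 0.0272), so that this gene was higher where the label says it was deleted. This call was lost without control replicate 2 (adjusted p = 0.0752), control replicate 3 (0.0715), iECKO replicate 2 (0.18) or iECKO replicate 3 (0.144), in fits where 0.00884% to 0.177% of all tested genes passed. Yap1 was at 0.995 to 1.62 FPKM in the controls and 0.989 to 1.43 FPKM in the libraries labelled iECKO, with overlapping ranges. Lats2 was at 23.4 and 24.0 FPKM in its controls and at 19.2 FPKM in both libraries labelled Lats2 iECKO (log2FC -0.29, adjusted p = 0.125). A gene-level value also counts reads outside the deleted exons, which limits this check, and directions drawn for the mutants below rest on the labels alone.

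Few ligands and many receptors were found in these cells. In mpECs and bmECs, 3 members were at 0 in every library, 17 had a mean under 1 FPKM, 11 a mean of 1 to 5 FPKM and 11 a mean of at least 5 FPKM. The Yap1/Taz libraries had 1, 18, 9 and 14 members in these classes, and the Lats2 libraries had 4, 18, 6 and 14. Cd70, the ligand of Cd27, was listed at 0 in all 16 libraries, and Cd40lg, the ligand of Cd40, was above 0 in 1 library, Yap1/Taz control replicate 2, at 0.116 FPKM. Only genes averaging 1 FPKM or more across the libraries compared were tested, which left 22, 23 and 20 of the 42 members, of which 5, 6 and 3 were ligands.

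**Figure D1:**
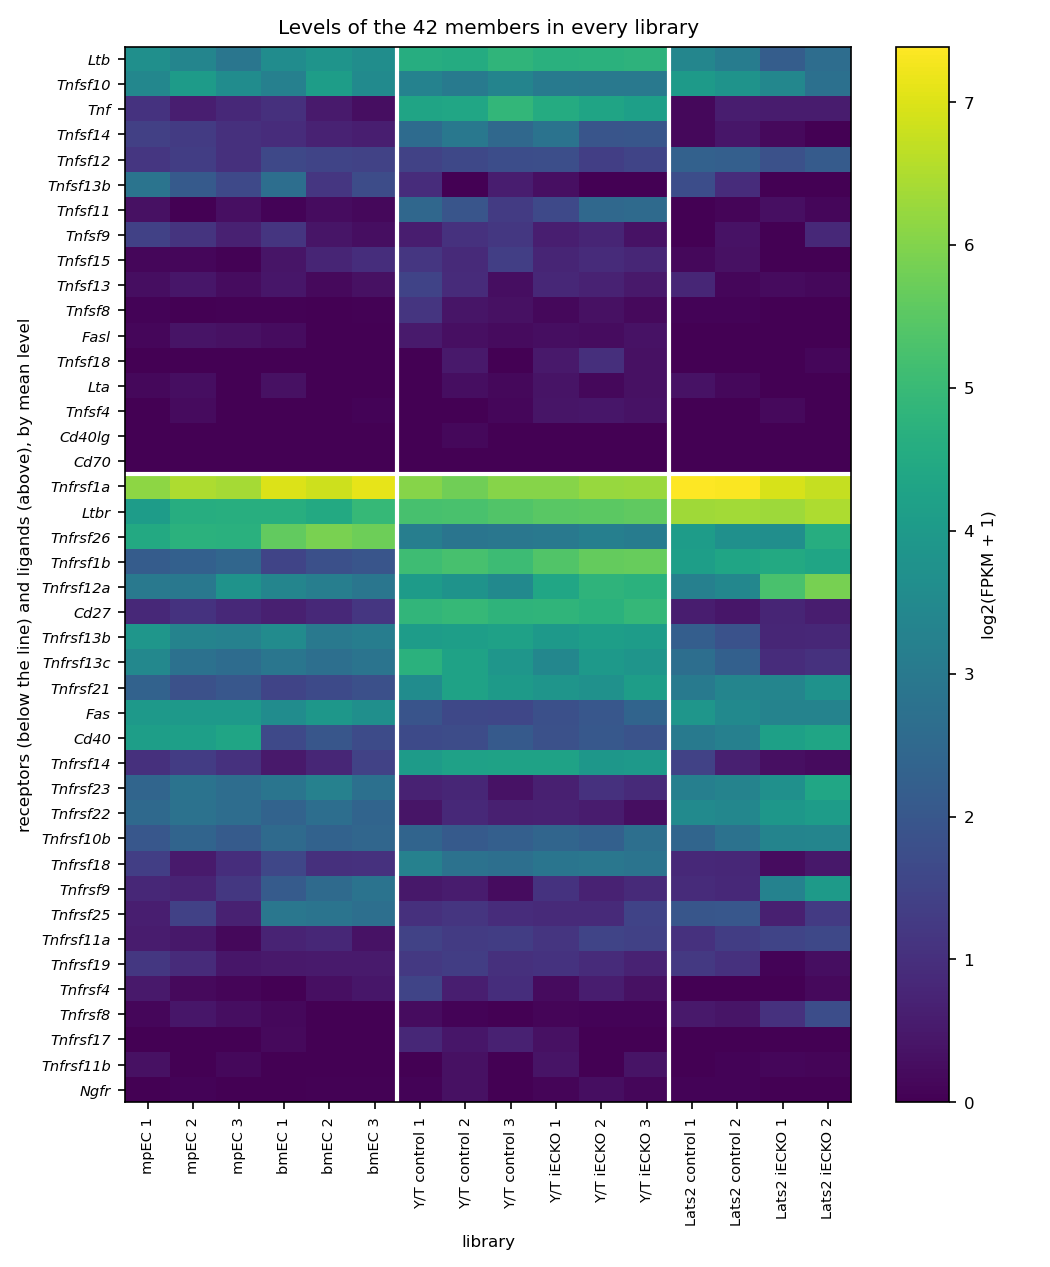
Color gives log2(FPKM + 1) of each of the 42 members (rows, ligands above the white line and receptors below it, ordered by mean level) in each of the 16 libraries (columns), Y/T standing for Yap1/Taz. Tnfrsf1a is the brightest row throughout, most ligand rows are dark, and Tnf, Ltb, Cd27 and Tnfrsf14 are brighter in the Yap1/Taz libraries than in the others. The white vertical lines part the experiments, whose values come as separate sets.

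Tnfrsf1a, the death domain receptor for TNF and lymphotoxin alpha, was the most abundant member in every library, from 53.9 FPKM in a Yap1/Taz control to 166.6 FPKM in a Lats2 control. Ltbr, the lymphotoxin beta receptor, lay between 16.1 and 89.1 FPKM. Ligands at 5 FPKM or more on average were Ltb and Tnfsf10 (TRAIL) in each of the 3 experiments, and Tnf in the Yap1/Taz libraries only, where it was at 17.1 to 28.6 FPKM. In the other libraries Tnf lay between 0.123 and 1.14 FPKM. Of the macrophage markers, Csf1r was at 34.3 to 60.0 FPKM in the Yap1/Taz libraries and at 0.952 to 9.49 FPKM elsewhere. Cd68 was at 74.6 to 116.2 FPKM there and at 3.04 to 27.8 FPKM elsewhere, whereas Lyz2, Cd14 and Ccr2 overlapped. The part of macrophages in the level of Tnf was not tested. The same Yap1/Taz libraries, controls included, held Cd27, a receptor of lymphocytes, at 25.1 to 29.8 FPKM, against 0.361 to 1.24 FPKM elsewhere. Tnfrsf14 (HVEM), the receptor of Tnfsf14, was at 14.2 to 18.0 FPKM there and at 0.173 to 1.76 FPKM elsewhere. The 3 experiments come as separate sets of values from mice of different genotypes, and whether they share a normalization is not given. These contrasts between experiments therefore carry no test.

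The first comparison asked how ECs of the marrow cavity differ from those of the metaphysis. Among the 22 tested members, 4 were higher in bmECs and 2 were lower at an adjusted p under 0.05, where 13.0% of all 11422 tested genes were higher and 10.5% lower. In all, 27.3% of the tested members passed against 23.5% of all tested genes, a share near that background. Ranges did not overlap for 5 members that were higher and 5 that were lower, against 22.1% and 19.2% of all tested genes. All 6 called members were receptors. The higher ones were Tnfrsf25, Tnfrsf9, Tnfrsf26 and Tnfrsf1a, and the lower ones were Cd40 and Tnfrsf1b. The median log2FC was -0.088 over the tested members and -0.001 over all tested genes.

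Cd40, the receptor through which CD40 ligand of activated T cells and platelets activates B cells, macrophages and endothelium, had the largest difference of these. The gene spans bases 165055627 to 165072948 of chromosome 2 (GRCm38). It was at 16.7, 16.9 and 19.1 FPKM in the 3 mpEC libraries and at 2.07, 2.95 and 2.20 FPKM in the bmEC libraries. Every mpEC library was above every bmEC library. Its mean of 17.6 ± 1.35 FPKM in mpECs (SD, n = 3) fell to 2.40 ± 0.476 FPKM in bmECs, with a log2FC of -2.45 (SE 0.13, adjusted p = 2.48e-05), and passed in all 16 alternative fits. Its ligand gene Cd40lg was listed at 0 in all 6 libraries.

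Tnfrsf25, also called DR3, is a death domain receptor that is best known on T cells. It was at 0.533, 1.67 and 0.588 FPKM in mpECs and at 6.56, 6.22 and 5.52 FPKM in bmECs, so that the groups did not overlap (log2FC 1.93, SE 0.22, adjusted p = 0.00065). Its ligand TL1A (Tnfsf15), a cytokine of endothelial cells, was low. Tnfsf15 came to 0.0967, 0.0898 and 0.0308 FPKM in mpECs, or 4, 3 and 1 recovered reads, and to 0.327, 0.695 and 0.965 FPKM in bmECs, or 9, 22 and 38 reads. These ranges did not overlap either, but the gene was under the filter on low values and was not tested in the fit described.

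Tnfrsf9 (4-1BB, CD137), a costimulatory receptor of activated lymphocytes that inflamed endothelium can also carry, was at 0.773, 0.663 and 1.29 FPKM in mpECs and at 3.35, 4.93 and 5.99 FPKM in bmECs. It rose by a log2FC of 1.58 (SE 0.21, adjusted p = 0.00127). Its ligand gene Tnfsf9 was at 0.586 to 1.71 FPKM in mpECs and 0.207 to 1.19 FPKM in bmECs, with overlapping ranges. Both Tnfrsf9 and Tnfrsf25 are known from T cells. The T and NK cell list (Cd3d, Cd3e, Cd3g, Cd4, Cd8a, Lck and Nkg7) summed to 31.6 to 85.8 FPKM in mpECs and 37.4 to 64.3 FPKM in bmECs, and its defining gene Cd3e was near 0, at 0.489 to 0.620 FPKM in mpECs and 0.169 to 0.442 FPKM in bmECs. Of this list Lck moved with the receptors, from 5.34 to 9.79 FPKM in mpECs to 19.2 to 25.8 FPKM in bmECs. Cd8a did so at low levels, from 0 FPKM in mpECs to 0.054 to 0.272 FPKM in bmECs. Cd3e was lower in bmECs, and the other genes of the list overlapped. The part of these genes in the result was not tested.

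Tnfrsf26 is one of 3 neighboring receptor genes on mouse chromosome 7, next to Tnfrsf22 and Tnfrsf23, which bind TRAIL without a death domain and act as decoys. It lies from 143607659 to 143628722 and was at 21.7, 25.5 and 24.8 FPKM in mpECs and 48.5, 58.3 and 52.9 FPKM in bmECs. The groups were apart, with a log2FC of 1.12 (SE 0.10, adjusted p = 0.000225). Of its neighbors, Tnfrsf22 was at 4.75, 5.87 and 5.23 FPKM in mpECs and 4.11, 5.32 and 4.16 FPKM in bmECs (log2FC -0.19, 95% CI -0.48 to 0.11, adjusted p = 0.333). Tnfrsf23 was at 4.30, 6.10 and 5.28 FPKM and at 6.27, 8.48 and 5.68 FPKM (log2FC 0.32, 95% CI -0.06 to 0.70, adjusted p = 0.206). Ranges of both neighbors overlapped between the groups. The TRAIL receptor with a death domain, Tnfrsf10b, was at 2.99 to 4.20 FPKM in mpECs and 4.001 to 4.87 FPKM in bmECs (adjusted p = 0.184), and TRAIL itself (Tnfsf10) at 9.68 to 15.6 and 8.33 to 16.4 FPKM (adjusted p = 0.889).

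The pair of TNF receptors moved in opposite directions. Tnfrsf1a was at 68.8, 88.7 and 83.4 FPKM in mpECs and at 125.9, 112.7 and 136.5 FPKM in bmECs, and it rose without overlap by a log2FC of 0.64 (SE 0.12, adjusted p = 0.00644). Tnfrsf1b, the TNF receptor without a death domain, was at 3.43, 3.78 and 4.40 FPKM in mpECs and at 1.85, 2.49 and 2.83 FPKM in bmECs (log2FC -0.53, SE 0.15, adjusted p = 0.036). This last call was the least stable of the 6 and was met in 6 of 15 alternative fits. It was lost without mpEC replicate 2 (adjusted p = 0.0824), mpEC replicate 3 (0.126), bmEC replicate 1 (0.104) or bmEC replicate 2 (0.0752), with the same direction. The ligands of both receptors were scarce, with Tnf at 0.550 to 1.14 FPKM in mpECs and 0.207 to 1.04 FPKM in bmECs and Lta at 0 to 0.264 FPKM.

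**Figure D2:**
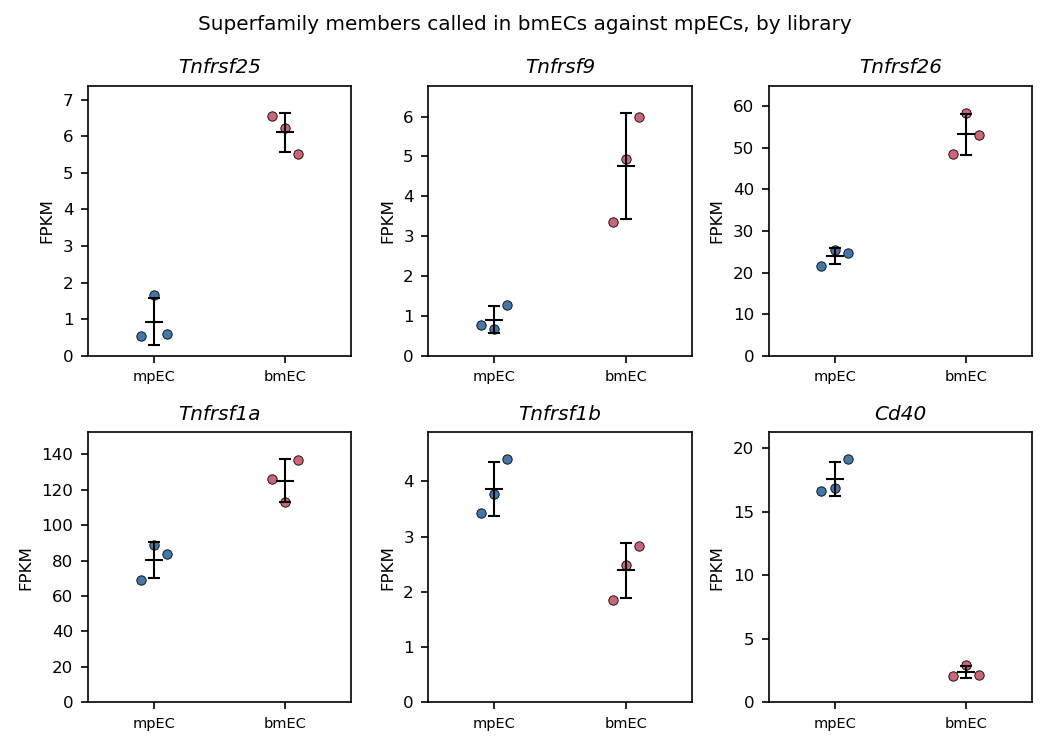
Each panel plots the FPKM (linear axis from 0) of one of the 6 called members in the 3 mpEC libraries (blue) and the 3 bmEC libraries (red), with a dash for the mean and bars for the SD. In each panel the groups do not overlap; Tnfrsf25, Tnfrsf9, Tnfrsf26 and Tnfrsf1a are higher in bmECs, and Cd40 and Tnfrsf1b are higher in mpECs.

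Among the other abundant members of these libraries, Ltbr was at 16.1, 23.5 and 23.9 FPKM in mpECs and 24.0, 21.6 and 29.7 FPKM in bmECs, and Ltb, which encodes its membrane ligand, at 11.7, 9.32 and 6.52 FPKM and 11.0, 13.0 and 11.2 FPKM. Fas, the death receptor for Fas ligand, was at 14.6, 14.8 and 15.0 FPKM in mpECs and 11.1, 14.0 and 11.9 FPKM in bmECs (adjusted p = 0.122). Tnfrsf12a (Fn14), the receptor of TWEAK, was at 6.98, 6.76 and 12.9 FPKM and at 9.21, 7.90 and 6.44 FPKM (adjusted p = 0.756). None of these passed the test. Tested members whose groups were apart without a call were Fas, Tnfrsf21 (DR6, 2.54 to 3.97 against 1.88 to 2.48 FPKM, adjusted p = 0.118) and the ligand gene Tnfsf14 (LIGHT, 1.05 to 1.65 against 0.548 to 0.915 FPKM, adjusted p = 0.0639), all lower in bmECs, and the TWEAK gene Tnfsf12 (1.02 to 1.56 against 1.74 to 2.05 FPKM, adjusted p = 0.118), which was higher. Genes on the same strand overlap 48.3% of the exons of Tnfsf12, so that its reads cannot be fully assigned. The B cell receptors for BAFF, Tnfrsf13b (TACI) and Tnfrsf13c (BAFF receptor), were at 8.50 to 13.7 and 5.16 to 10.0 FPKM in mpECs and at 6.90 to 10.8 and 5.56 to 6.45 FPKM in bmECs (adjusted p = 0.422 and 0.691). BAFF itself (Tnfsf13b) was at 2.10 to 6.18 FPKM in mpECs and 1.25 to 5.36 FPKM in bmECs, with overlapping ranges. Of the osteoclast axis, RANKL (Tnfsf11) stayed at or under 0.253 FPKM, osteoprotegerin (Tnfrsf11b) at or under 0.259 FPKM and RANK (Tnfrsf11a) at or under 0.779 FPKM, and none of these could be tested. B cell markers (Cd79a, Cd79b, Ms4a1, Pax5, Vpreb1 and Vpreb3) summed to 194.2 to 385.8 FPKM in mpECs and 176.9 to 218.6 FPKM in bmECs. In sorted bulk samples of this kind, fewer cells of a type and less RNA per cell cannot be told apart.

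Downstream of the receptors, 18 of the 19 genes of a TNF receptor signalling list that were in the table could be tested, and 4 were higher and 1 lower in bmECs. The share called was 27.8%, against 23.5% of all genes. Caspase 8 (Casp8), the protease of death receptor complexes, was at 96.6, 105 and 94.0 FPKM in mpECs and 181, 165 and 148 FPKM in bmECs (log2FC 0.73, adjusted p = 0.00133). Its inhibitor Cflar rose as well, from 13.3 ± 1.95 to 18.2 ± 1.55 FPKM (log2FC 0.43, adjusted p = 0.0382). So did both cIAP genes, which encode ubiquitin ligases that hold receptor complexes in a survival state. Birc3 rose from 9.96 ± 0.765 to 15.5 ± 2.04 FPKM (adjusted p = 0.00852) and Birc2 from 14.8 ± 0.502 to 20.5 ± 2.64 FPKM (adjusted p = 0.0202). Traf5, an adaptor of several receptors of the family, Cd40 among them, was at 7.33, 7.40 and 10.9 FPKM in mpECs and 3.77, 2.85 and 3.63 FPKM in bmECs, with a log2FC of -1.09 (SE 0.17, adjusted p = 0.00257). The groups of all 5 genes were apart. The call of Cflar was lost when any single library was left out (adjusted p = 0.0512 to 0.122), and that of Birc2 without mpEC replicate 2 (0.0558), mpEC replicate 3 (0.072) or bmEC replicate 2 (0.0597).

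Other features of these libraries moved with the groups. Osteoblast markers summed to 234.8 to 925.9 FPKM in mpECs against 44.7 to 59.8 FPKM in bmECs. Macrophage and monocyte markers (Lyz2, Cd14, Cd68, Csf1r and Ccr2) summed to 1085 to 1974 FPKM in mpECs and 706.3 to 998.7 FPKM in bmECs, and osteoclast markers to 42.4 to 77.4 FPKM and 23.9 to 27.9 FPKM, so that both sums, like Cd40 and Tnfrsf1b, were lower in every bmEC library. Lyz2 made up most of the macrophage sum, and Cd14, Cd68 and Csf1r overlapped between the groups. Sums of the endothelial, stroma and pericyte, B cell, T and NK cell, neutrophil, red cell and megakaryocyte lists overlapped between the groups. Single genes behind these sums could be apart. Of the endothelial genes, Kdr (104.0 to 145.7 FPKM in mpECs against 193.0 to 204.9 FPKM in bmECs), Tek and Erg were higher in bmECs. Pecam1 (151.6 to 177.7 against 107.4 to 114.4 FPKM), Emcn, Flt1 and Tie1 were lower, and Cdh5 overlapped. Lepr (2.74 to 3.20 against 11.6 to 14.8 FPKM) and the red cell gene Alas2 were higher. Immediate early genes known from cell sorting summed to 928.7 to 1356 FPKM in mpECs, 3038 and 3596 FPKM in bmEC replicates 1 and 2 and 1075 FPKM in bmEC replicate 3. A fit added after the data were seen kept bmEC replicate 3 as the only bmEC library, which is assumed to vary like the mpECs, and called 7.15% of all tested genes in place of 23.5%. Its log2FC was -2.54 for Cd40, 1.80 for Tnfrsf25, 1.89 for Tnfrsf9, 1.11 for Tnfrsf26, 0.77 for Tnfrsf1a and -0.34 for Tnfrsf1b, and 0.58 for Casp8, 0.34 for Cflar, 0.56 for Birc3, 0.40 for Birc2 and -1.02 for Traf5. All 11 kept their direction, but not all of them passed the test in that fit. The part of osteoblast, macrophage and osteoclast RNA in these results was not tested.

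The promoters of 3 of these receptors are shown because they carry motifs of factors that the study or the family's biology brings up. RefSeq promoters (GRCm38.p6) were at hand for 32 of the 42 members, in 36 entries, and the 250 bases before each start were searched on both strands. The letters searched were ACGTG for the core of the hypoxia response element, CATTCC for the core of the TEAD site, to which YAP and TAZ are tethered, and GGGNNNNNCC for the NF-kB site. The hypoxia core was found in 9 of the 36 entries of members and in 16.6% of all promoters, the TEAD core in 5 and in 12.6%, and the loose NF-kB consensus in 23 and in 45.8%. The stretches below end at the base before the start, read 5′ to 3′ along the gene, and have in capitals the hypoxia core of Tnfrsf25 (chr4:152115684-152115933, plus strand, upstream one of its 2 starts), the overlapping NF-kB matches of Tnfrsf9 (chr4:150927749-150927998, plus strand, downstream one of its 2 starts) and both TEAD cores of Tnfrsf1b (chr4:145246871-145247120, minus strand). A match is a string of letters and not a bound site. Capitals mark 1 motif per gene, and the stretches of Tnfrsf25 and Tnfrsf1b also hold 3 matches each to the NF-kB consensus.
Tnfrsf25: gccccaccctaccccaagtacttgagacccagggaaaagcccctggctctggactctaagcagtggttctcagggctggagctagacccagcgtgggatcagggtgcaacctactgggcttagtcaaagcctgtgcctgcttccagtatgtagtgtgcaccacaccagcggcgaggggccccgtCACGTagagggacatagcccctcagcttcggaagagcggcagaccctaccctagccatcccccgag
Tnfrsf9: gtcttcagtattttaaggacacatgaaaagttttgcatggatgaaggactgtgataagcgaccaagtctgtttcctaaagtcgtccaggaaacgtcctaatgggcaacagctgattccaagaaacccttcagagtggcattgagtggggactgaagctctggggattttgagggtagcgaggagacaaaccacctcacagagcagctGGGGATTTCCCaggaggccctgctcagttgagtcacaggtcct
Tnfrsf1b: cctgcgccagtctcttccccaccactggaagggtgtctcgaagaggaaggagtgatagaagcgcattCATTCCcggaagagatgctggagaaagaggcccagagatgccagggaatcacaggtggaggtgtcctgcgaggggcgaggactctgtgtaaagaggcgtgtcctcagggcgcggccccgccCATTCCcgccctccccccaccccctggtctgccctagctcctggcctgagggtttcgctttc

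The second comparison addressed the loss of Yap1 and Taz in ECs. Of the 23 tested members, 1 was higher in the libraries labelled Yap1/Taz iECKO and 0 were lower, where 0.883% of 11320 tested genes were higher and 0.424% lower, 1.31% in all. Limma gave 4 members an unadjusted p under 0.05, as it did 17.9% of all tested genes, a like share. Limma-voom on recovered reads called 2, Tnfrsf12a and Tnfrsf1b, where it called 3.46% of all genes. The median log2FC was 0.011 over the members and -0.005 over all tested genes. Ranges of the groups did not overlap for 3 tested members, all higher, where 12.3% of all tested genes were higher and 11.3% lower in that sense.

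Tnfrsf12a encodes Fn14, a small receptor that is induced by growth factors and injury in many cells and whose ligand is TWEAK. It was at 15.8, 13.0 and 10.4 FPKM in the controls and at 19.8, 27.2 and 25.4 FPKM in the libraries labelled iECKO, with no overlap. It rose from 13.0 ± 2.68 to 24.1 ± 3.85 FPKM (SD, n = 3), with a log2FC of 0.85 (SE 0.16, adjusted p = 0.0423). The call sat close to the threshold and was met in 7 of 16 alternative fits, with adjusted p-values from 0.017 to 0.64 and log2FC values from 0.58 to 0.98. Among the fits that lost it were those without control replicate 2 (adjusted p = 0.1), control replicate 3 (0.0942), iECKO replicate 2 (0.209) and iECKO replicate 3 (0.161), the same fits that called few genes of any kind. Its ligand gene Tnfsf12 was at 1.74, 2.02 and 2.35 FPKM in the controls and 2.41, 1.59 and 1.87 FPKM in the others (adjusted p = 0.92), and genes on its own strand overlap 48.3% of its exons, so that its reads cannot be fully assigned.

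The other tested members whose groups were apart were the TNF receptor Tnfrsf1b and the lymphotoxin beta receptor. Tnfrsf1b was at 33.0, 36.4 and 32.2 FPKM in the controls and at 40.7, 49.4 and 50.3 FPKM in the libraries labelled iECKO (log2FC 0.45, 95% CI 0.21 to 0.70, adjusted p = 0.0725). For Ltbr the values were 36.9, 37.8 and 40.5 FPKM and 43.8, 45.6 and 46.6 FPKM (log2FC 0.23, 95% CI 0.03 to 0.43, adjusted p = 0.208). Neither passed the test. Endothelial markers summed to 408.9 to 420.6 FPKM in the controls and 472.3 to 559.4 FPKM in the libraries labelled iECKO, and the immediate early genes to 2401 to 2614 FPKM and to 2561, 3117 and 3331 FPKM. Of the immediate early genes, Junb and Atf3 were higher in every library labelled iECKO, Fos and Ier2 were lower, and the rest overlapped. The sum of osteoblast markers went the other way, from 33.2 to 45.9 FPKM to 11.1 to 24.7 FPKM. Of its genes, Sp7 was higher (0 to 0.056 against 0.061 to 0.235 FPKM), Runx2 and Spp1 overlapped, and the others were lower. The part of all these marker genes in the differences was not tested. With iECKO replicate 1 as the only iECKO library, assumed to vary like the controls, the log2FC of Tnfrsf12a was 0.58. That fit, added after the data were seen, called 1 of all 11297 tested genes, so that its adjusted p says little of a single gene.

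None of the 6 tested ligands stood apart. Tnf was at 18.9, 19.8 and 28.6 FPKM in the controls and 22.3, 18.8 and 17.1 FPKM in the libraries labelled iECKO (log2FC -0.18, 95% CI -0.54 to 0.18). Ltb was at 23.5, 22.5 and 27.5 FPKM and at 25.0, 25.5 and 26.4 FPKM (0.07, 95% CI -0.16 to 0.30). Tnfsf10 was at 8.60, 7.14 and 9.11 FPKM and at 7.32, 6.85 and 6.95 FPKM (-0.20, 95% CI -0.47 to 0.06). Tested by limma, 0 of the 6 ligands passed, 0 had an unadjusted p under 0.05, and all 6 ranges overlapped. RANKL (Tnfsf11), the osteoclast cytokine, spread widely within both groups, at 4.52, 2.86 and 1.45 FPKM in the controls and 2.11, 4.67 and 4.88 FPKM in the others.

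Receptors known from lymphocytes were among the abundant members of these libraries. Cd27 was at 28.2, 29.8 and 27.1 FPKM in the controls and 27.8, 25.1 and 29.5 FPKM in the libraries labelled iECKO (adjusted p = 0.849), Tnfrsf13b at 15.8, 16.6 and 17.8 FPKM and 14.9, 16.6 and 16.01 FPKM (adjusted p = 0.737). Tnfrsf14 was at 15.5, 17.7 and 18.0 FPKM and 17.9, 14.2 and 14.9 FPKM (adjusted p = 0.644). Ranges of these receptors overlapped between the groups. Tnfrsf13c was at 25.3, 18.3 and 13.7 FPKM in the controls and at 9.77, 14.6 and 13.5 FPKM in the others (log2FC -0.54, adjusted p = 0.211), beside a B cell marker sum of 259.6 to 308.0 FPKM in the controls and 211.9 to 218.6 FPKM in the others, whose part was not tested. Of the rest with at least 5 FPKM, Tnfrsf1a (53.9 to 65.5 and 64.8 to 76.1 FPKM), Tnfrsf21 (DR6, 11.2 to 18.1 and 12.4 to 16.5 FPKM), Tnfrsf26 (6.39 to 7.93 and 6.91 to 8.04 FPKM) and Tnfrsf18 (GITR, 5.51 to 8.43 and 6.12 to 6.62 FPKM) had overlapping ranges, and 27.2% of the exon bases of Tnfrsf18 overlap a gene on the other strand.

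In the signalling list, 1 of 20 tested genes was higher and 0 lower at an adjusted p under 0.05. Of all tested genes, 1.31% passed in either direction. Limma gave 7 of the 20 an unadjusted p under 0.05, where 17.9% of all tested genes had one. Traf1, an adaptor that NF-kB induces and that binds TNF receptor 2 complexes, was at 1.50, 2.33 and 1.98 FPKM in the controls and at 3.77, 4.06 and 4.25 FPKM in the libraries labelled iECKO, with no overlap (log2FC 0.78, SE 0.15, adjusted p = 0.0423). It passed in 5 of 15 alternative fits, and leaving out any single library other than iECKO replicate 1 took its adjusted p to between 0.0557 and 0.209.

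**Figure D3:**
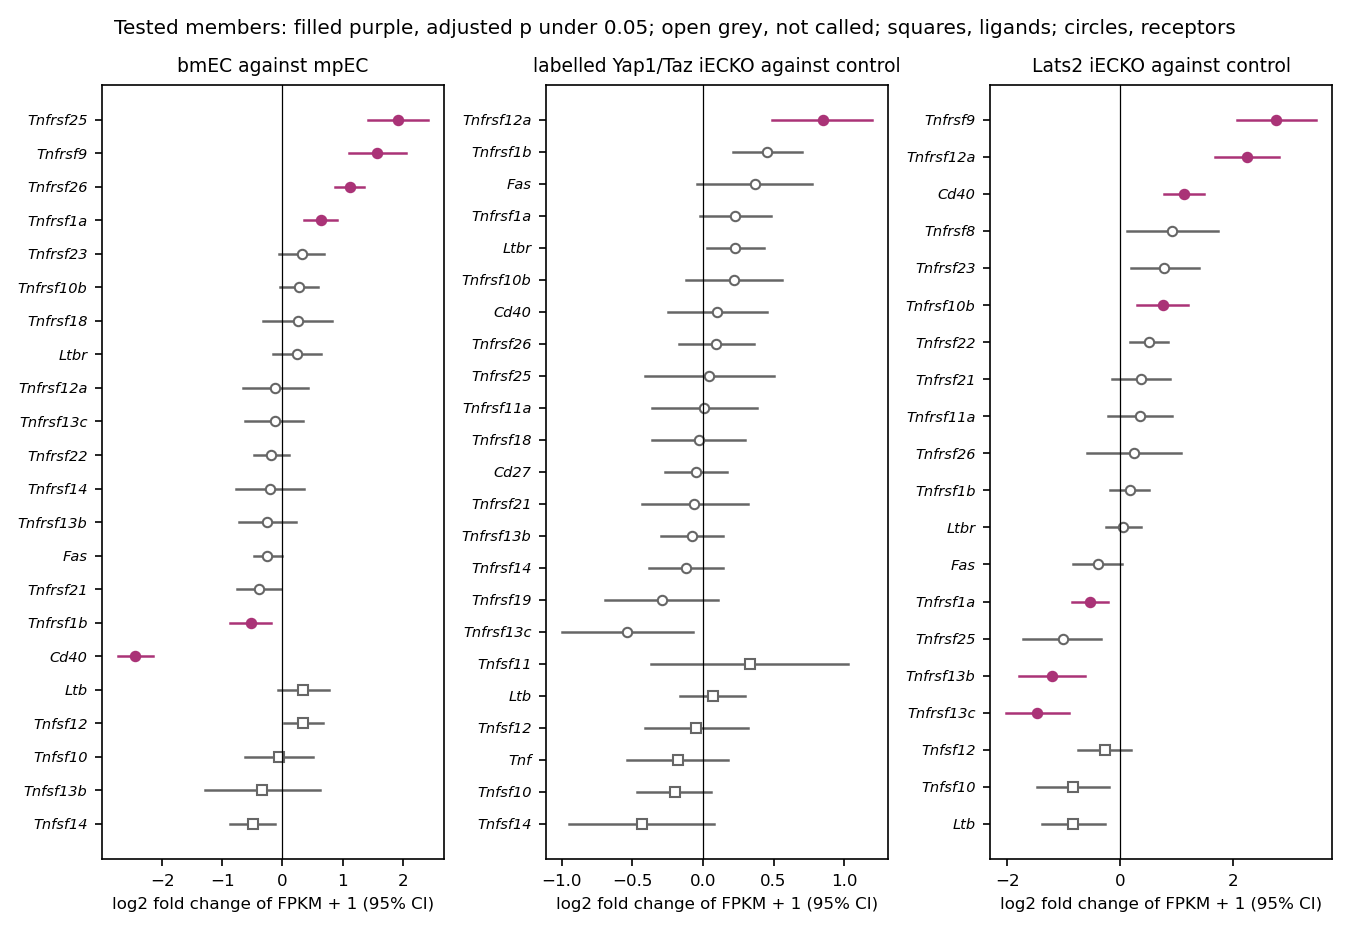
Log2 fold changes of FPKM + 1 (horizontal axes, which differ in scale) with 95% confidence intervals for the tested members in the 3 comparisons, ligands as squares and receptors as circles. Filled purple symbols passed an adjusted p under 0.05, which were 6 receptors for bmECs against mpECs, 1 for Yap1/Taz and 7 for Lats2; no ligand passed in any of them.

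The third comparison addressed the loss of Lats2. Of the 20 tested members, 4 were higher and 3 lower in the libraries labelled Lats2 iECKO, where 11.8% of the 12453 tested genes were higher and 9.98% lower. The share called was 35.0% of the tested members and 21.8% of all tested genes. Ranges of the groups did not overlap for 10 members that were higher and 8 that were lower, against 34.0% and 34.2% of all tested genes. All 7 called members were receptors. The higher ones were Tnfrsf9, Tnfrsf12a, Cd40 and Tnfrsf10b, and the lower ones Tnfrsf13c, Tnfrsf13b and Tnfrsf1a. With 2 libraries per group, all calls of limma depend on each control. Without control replicate 1 or 2, limma called 0 of all 12465 or 12512 tested genes, members included, 7 and 8 members had an unadjusted p under 0.05, where 21.9% and 23.0% of all genes did, and the 7 log2FC values kept their direction. Tnfrsf9, Tnfrsf12a and Cd40 kept their calls without either iECKO library. Tnfrsf10b (adjusted p = 0.0937 and 0.129) and Tnfrsf13b (0.0543 and 0.0729) lost theirs without iECKO replicate 1 or 2, and Tnfrsf13c (0.0568) and Tnfrsf1a (0.0783) without replicate 2.

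Tnfrsf9 had the largest log2FC of the members here. It was at 0.886 and 0.803 FPKM in the controls, or 12 and 13 recovered reads, and at 8.76 and 15.4 FPKM in the libraries labelled Lats2 iECKO, or 90 and 209 reads. It rose from 0.844 ± 0.0588 to 12.1 ± 4.71 FPKM (SD, n = 2), with a log2FC of 2.78 (SE 0.28, adjusted p = 0.0091), which ran from 2.40 to 3.15 when single libraries were left out. Its ligand gene Tnfsf9 was at 0 and 0.273 FPKM in the controls and at 0 and 0.817 FPKM in the others. Another gene of activated lymphocytes, Tnfrsf8 (CD30), was at 0.407 and 0.340 FPKM and at 1.07 and 2.32 FPKM (adjusted p = 0.0972). The T and NK cell list summed to 16.8 and 14.6 FPKM in the controls and 6.23 and 3.42 FPKM in the libraries labelled iECKO, most of it from Lck (9.26 to 9.30 against 1.58 to 3.26 FPKM) and Nkg7 (3.26 to 5.27 against 0 to 0.604 FPKM). Its members were not alike: Cd3d was lower too, Cd3e and Cd3g overlapped at or under 0.554 FPKM, Cd8a was at or under 0.107 FPKM, and Cd4 was higher, at 0.083 to 0.199 FPKM in the controls and 0.947 to 1.12 FPKM in the others. The part of lymphocytes in these values was not tested.

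Tnfrsf12a stood at 8.35 and 9.60 FPKM in the controls and at 37.4 and 57.6 FPKM in the libraries labelled Lats2 iECKO. The groups were far apart, and the gene rose by a log2FC of 2.25 (SE 0.23, adjusted p = 0.0091), with adjusted p-values of 0.00245 to 0.13 over 13 alternative fits, the highest without control replicate 1. Tnfsf12, its ligand gene, was at 3.86 and 3.67 FPKM and at 2.55 and 3.39 FPKM (adjusted p = 0.338), with the limit on assigning its reads given above. Marrow stroma and pericyte markers (Cxcl12, Lepr, Pdgfra, Pdgfrb, Cspg4, Rgs5 and Acta2) were also higher, summing to 31.6 and 40.1 FPKM in the controls and 62.6 and 72.7 FPKM in the libraries labelled iECKO. Of the 7 genes, 6 did not overlap between the groups, the pericyte genes Acta2 (0.339 to 2.17 against 9.22 to 9.93 FPKM), Rgs5 (1.33 to 1.41 against 3.79 to 8.79 FPKM) and Pdgfrb (0.215 to 0.587 against 1.69 to 3.63 FPKM) among them, and Pdgfra did. Their part in the higher receptors was not tested. Tnfrsf12a passed in both mutant comparisons and was higher under the mutant label in each, and whether the 2 effects differ was not tested. Its promoter is shown because the gene passed in both. The TEAD core was not among its letters in the 250 bases before the start, and capitals mark its 2 matches to the NF-kB consensus (chr17:23677450-23677699, minus strand, GRCm38.p6).
Tnfrsf12a: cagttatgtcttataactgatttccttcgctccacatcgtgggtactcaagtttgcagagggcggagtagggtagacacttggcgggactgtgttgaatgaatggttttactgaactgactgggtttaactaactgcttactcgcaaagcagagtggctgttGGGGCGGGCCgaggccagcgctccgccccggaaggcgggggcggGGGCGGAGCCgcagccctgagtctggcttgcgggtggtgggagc

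Cd40 was at 7.20 and 8.24 FPKM in the controls and at 17.2 and 19.3 FPKM in the libraries labelled Lats2 iECKO, and it rose by a log2FC of 1.14 (SE 0.14, adjusted p = 0.0113). Among the receptors of TRAIL, Tnfrsf10b was at 4.31 and 5.83 FPKM in the controls and 9.02 and 9.31 FPKM in the others (log2FC 0.76, SE 0.17, adjusted p = 0.0369). The decoy receptors Tnfrsf22 (10.5 and 9.80 against 14.0 and 15.9 FPKM, adjusted p = 0.0506) and Tnfrsf23 (8.15 and 8.82 against 12.1 and 19.6 FPKM, adjusted p = 0.0693) were also higher in both libraries labelled iECKO than in both controls, but did not pass the test. TRAIL, encoded by Tnfsf10, was at 15.2 and 13.0 FPKM in the controls and 9.71 and 5.68 FPKM in the others (log2FC -0.83, adjusted p = 0.071).

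Tnfrsf1a was at 166.6 and 162.1 FPKM in the controls and at 120.8 and 105.1 FPKM in the libraries labelled Lats2 iECKO (log2FC -0.54, SE 0.13, adjusted p = 0.0385). Quantile normalization took its log2FC to -0.78. Tnfrsf1b lay at 16.7 and 19.3 FPKM and at 21.4 and 19.3 FPKM (adjusted p = 0.408), and Ltbr at 79.2 and 81.1 FPKM and at 78.2 and 89.1 FPKM (adjusted p = 0.759). Tnf was scarce, with 1 to 5 recovered reads per library.

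The receptors for BAFF were lower. Tnfrsf13c was at 5.38 and 3.83 FPKM in the controls and 0.919 and 1.10 FPKM in the libraries labelled Lats2 iECKO (log2FC -1.47, SE 0.22, adjusted p = 0.0156). Tnfrsf13b was at 3.61 and 2.61 FPKM and at 0.747 and 0.779 FPKM (log2FC -1.21, SE 0.23, adjusted p = 0.0243). All 6 B cell markers named above were above 0 in each library and moved with them, summing to 109.5 and 88.5 FPKM in the controls and 29.1 and 21.2 FPKM in the libraries labelled iECKO. Ltb, which B cells also make, was at 9.41 and 7.54 FPKM and at 3.50 and 5.30 FPKM (adjusted p = 0.0533). BAFF itself (Tnfsf13b) was at 2.38 and 0.904 FPKM in the controls, or 81 and 37 recovered reads, and was listed at 0 in both libraries labelled iECKO. Markers of neutrophils (2873 and 1918 against 843.1 and 702.9 FPKM), red cells (2553 and 1838 against 1067 and 145.3 FPKM), megakaryocytes (29.7 and 110.1 against 12.2 and 9.45 FPKM) and macrophages (555.7 and 475.8 against 317.4 and 88.6 FPKM) were lower as well. Of the macrophage genes, Lyz2, which makes up most of the sum, Cd14 and Ccr2 were apart, whereas Cd68 and Csf1r overlapped. The sum of endothelial markers overlapped (1459 and 1529 against 1485 and 1361 FPKM), but Kdr (324.3 to 338.3 against 149.7 to 195.6 FPKM) and Tek (213.4 to 215.0 against 65.2 to 106.8 FPKM) were lower and Pecam1 higher (188.2 to 207.3 against 346.3 to 368.6 FPKM). The part of these cells in the differences was not tested.

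**Figure D4:**
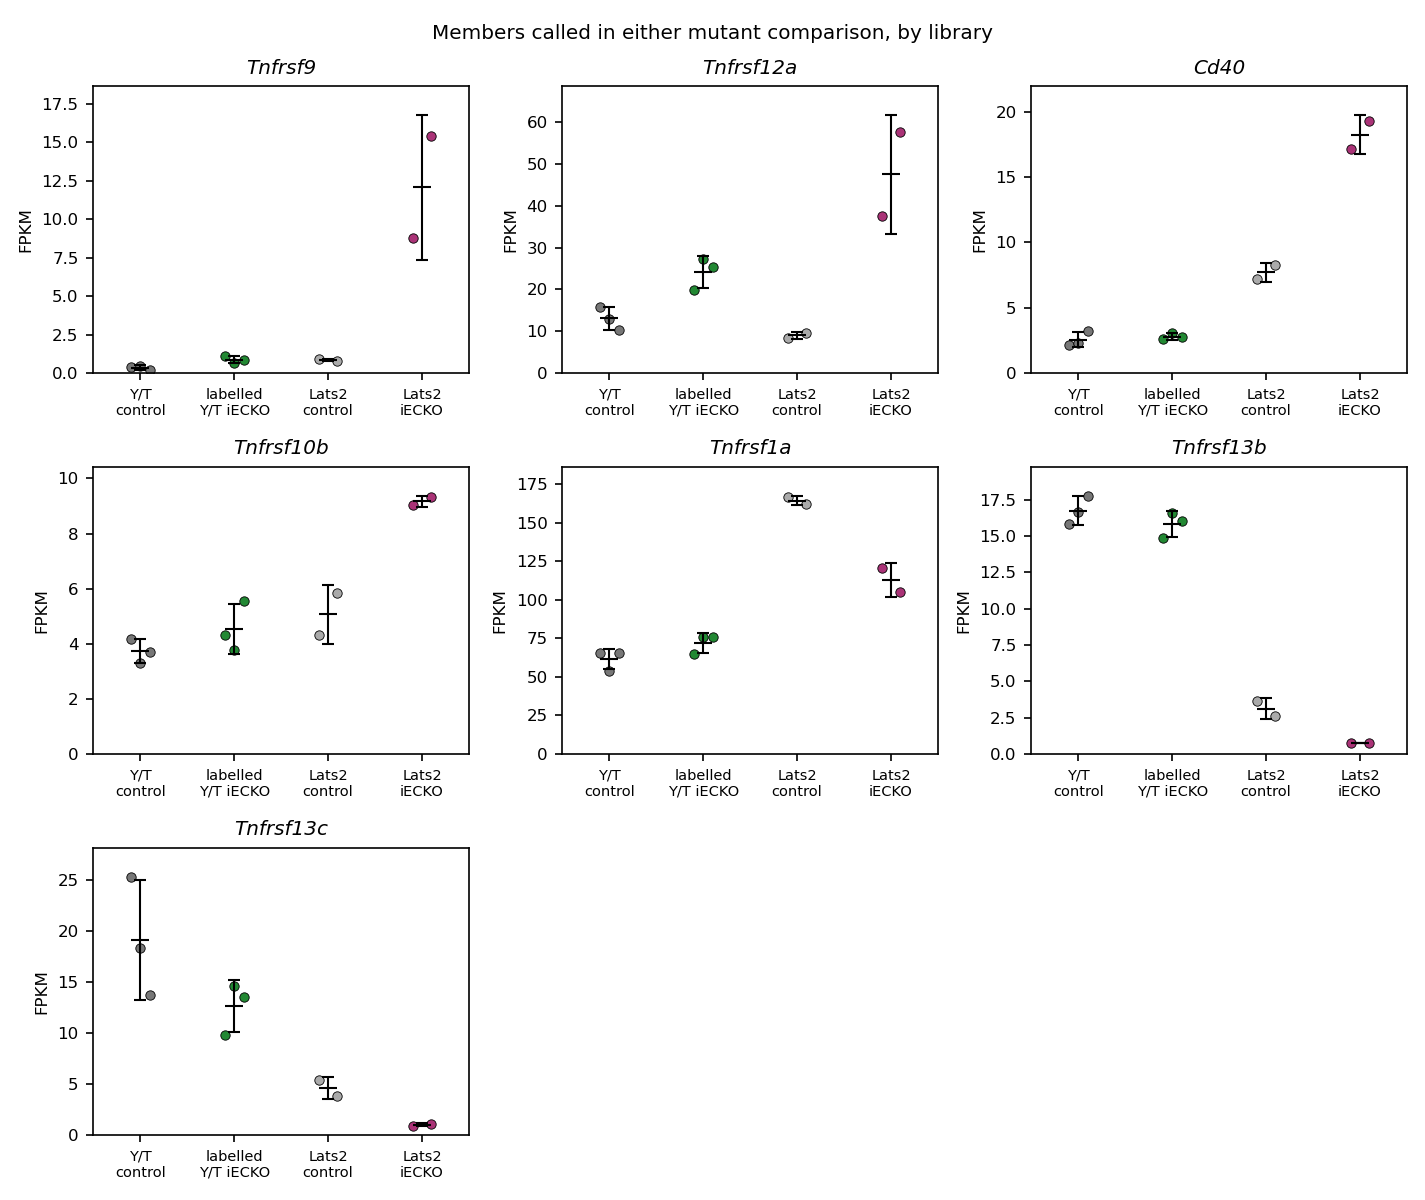
FPKM (linear axes from 0) of the 7 members called in a mutant comparison, in the control libraries (grey) and the libraries labelled Yap1/Taz iECKO (green) and Lats2 iECKO (purple), with a dash for the mean and bars for the SD. Tnfrsf9, Tnfrsf12a, Cd40 and Tnfrsf10b are higher and Tnfrsf1a, Tnfrsf13b and Tnfrsf13c lower in the libraries labelled Lats2 iECKO than in their controls, and Tnfrsf12a alone was called for Yap1/Taz, where it is higher.

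Of the other abundant members, Fas was at 13.8 and 10.4 FPKM in the controls and 8.97 and 8.81 FPKM in the libraries labelled Lats2 iECKO (adjusted p = 0.159), Tnfrsf21 at 7.15 and 9.27 FPKM and 9.35 and 12.6 FPKM (adjusted p = 0.235), and Tnfrsf26 at 15.8 and 12.0 FPKM and 11.7 and 23.2 FPKM (adjusted p = 0.623). Tnfrsf25, which was higher in bmECs than in mpECs, was at 2.91 and 3.03 FPKM in the controls and 0.582 and 1.41 FPKM in the libraries labelled iECKO (log2FC -1.02, adjusted p = 0.0532). These did not pass the test.

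In the signalling list 0 of 19 tested genes were higher and 3 were lower, a share of 15.8% against 21.8% of all genes. Limma gave 7 of them an unadjusted p under 0.05, where 38.6% of all genes had one. Limma-voom called 6, all lower, where it called 13.1% of all genes lower. The list's median log2FC was -0.337 against -0.003 over all tested genes. Birc2, which encodes cIAP1, was at 15.4 FPKM in both controls and at 5.59 and 4.04 FPKM in the libraries labelled Lats2 iECKO (log2FC -1.51, SE 0.17, adjusted p = 0.0104). Birc3 was at 11.4 and 10.8 FPKM and at 5.61 and 6.98 FPKM (log2FC -0.74, adjusted p = 0.0297), and Traf2, the adaptor that carries both cIAPs to the receptors, at 14.7 and 15.6 FPKM and at 10.6 FPKM in both (log2FC -0.48, adjusted p = 0.0474). The groups of all 3 genes were apart. Without either control library none of the 3 passed limma's test, and Birc3 (adjusted p = 0.0591 and 0.0536) and Traf2 (0.077 and 0.105) did not pass without iECKO replicate 1 or 2 either, with log2FC values of -1.70 to -1.31 for Birc2 when single libraries were left out.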

How the data were processed

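RNA was measured in 16 libraries (TruSeq Stranded Total RNA, sequenced paired-end on a MiSeq). Reads were aligned by the authors to mm10 (GRCm38) using TopHat and assigned to genes using HTSeq 0.6.1, and FPKM values were deposited; the step from counts to FPKM and the strand setting are not given in the sources used here. The Yap1/Taz files have no header, and their unit was read from the values. Their Ensembl IDs were given symbols (21375 of 21603 matched). The Lats2 table has 27 rows whose names became dates, none of them a member.

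Log2(FPKM + 1) of genes averaging 1 FPKM or more across the libraries compared was tested with limma 3.58.1 (R 4.3.3; empirical Bayes with a mean-variance trend, group as the only term, two-sided), with Benjamini-Hochberg adjustment over all tested genes and a threshold of 0.05. On this scale the changes of low genes are understated. Alternatives were a pseudocount of 0.1, means of at least 0.1 or 5 FPKM or no filter, quantile normalization, median centring, a call at adjusted p under 0.01 and a log2 fold change over 0.5, the replicate number as a block, each library left out, and limma-voom on recovered reads. Reads were recovered as FPKM times GENCODE M21 exon length times a library factor; of values up to 20 reads, 62.7% to 70.3% per library lay within 0.02 of a whole number, where 4.0% would by chance. One read in a gene of 2 kb is worth 0.0405 to 0.1326 FPKM. The procedure was run on simulated counts with the same dispersion for all genes, so that its error rates in these data were not tested. No replicates were alike within counting noise. Leaving out the libraries richest in immediate early genes was added after the data were seen.

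Members with an adjusted p under 0.05 or a mean of at least 5 FPKM, their partners above 0 and called genes of the signalling list (Traf1, Traf2, Traf3, Traf4, Traf5, Traf6, Tradd, Fadd, Ripk1, Casp8, Cflar, Birc2, Birc3, Tnfaip3, Cyld, Map3k14, Rbck1, Rnf31, Sharpin and Otulin, the last listed only in the Yap1/Taz files) were named. Members, lists and rules were chosen with earlier results of these data known. A single B cell marker gene is not reported here and was left out of the marker sums.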

Additional observations from a re-analysis of the deposited data

How the results depend on the processing

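For bmECs against mpECs, 6 members were called, 3 of them left with a mean of at least 5 FPKM, a filter that removes the others, and 5 to 6 when single libraries were left out. Without bmEC replicates 1 and 2, not all 6 kept their calls. The 5 signalling genes became 3 under the stricter call, 3 to 4 with single libraries left out and 0 without bmEC replicates 1 and 2, where 7.15% of all genes passed. For Yap1/Taz, the 1 called member and the 1 called signalling gene both became 0 under the stricter call, with a mean of at least 0.1 FPKM, with no filter, with the replicate block and without iECKO replicates 2 and 3, and ran from 0 to 2 with single libraries left out. A mean of at least 5 FPKM left 0 signalling genes, and limma-voom called 2 members, where it called 3.46% of all tested genes. For Lats2, the 7 members became 2 under the stricter call, 12 by limma-voom and 0 to 8 with single libraries left out; the 3 signalling genes became 0, 6 and 0 to 3, and 5 when genes had to average 5 FPKM and 1 with no filter. Leaving out a Lats2 library leaves 1 in its arm, which is assumed to vary like the other arm, and without either control 0 of all tested genes passed. Wwtr1 in the Yap1/Taz comparison missed the threshold under the stricter call and with no filter (log2 fold change 0.78) and without iECKO replicates 2 and 3 (0.56), and ran from 0.72 to 0.89 with single libraries left out. Yap1 changed sign, at 0.14 without iECKO replicates 2 and 3 and from -0.14 to 0.08 with single libraries left out (0.08 and 0.01 where positive). Lats2 ran from -0.31 to -0.27. The causes of these shifts were not tested. No called gene changed direction in any fit. Same-numbered libraries share only a number: the correlations of their deviations were 0.307, 0.088 and 0.102 for mpECs and bmECs, -0.175, -0.123 and -0.155 for Yap1/Taz and 0.065 for Lats2. With the replicate block 7, 0 and 9 members were called in the 3 comparisons. The block called 1597 of all 11422 tested genes higher and 1475 lower for bmECs against mpECs. It called 29 and 16 of 11320 for Yap1/Taz, and 1457 and 1198 of 12453 for Lats2. For Lats2, the stricter call passed 106 of all 12453 tested genes as higher and 151 as lower, and limma-voom called 27.0% of 11710. Depth limits the members under 1 FPKM, which rest on few reads and were not tested in the fits described.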

Other observations

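Several members under the filter on low values had ranges that did not overlap between groups, and are given as values with no test. They were chosen after their values were seen. Of all tested genes, 12.3% were apart as higher and 11.3% as lower for Yap1/Taz. For Lats2 these shares were 34.0% and 34.2%. In the Yap1/Taz libraries, Tnfrsf9 was at 0.387, 0.480 and 0.178 FPKM in the controls, or 5, 9 and 3 recovered reads, and at 1.10, 0.628 and 0.841 FPKM in the libraries labelled iECKO, or 14, 10 and 13 reads. Tnfsf4 (OX40 ligand) had 0, 0 and 1 reads in the controls and 3, 4 and 3 reads in the others, while its receptor Tnfrsf4 (OX40) was at 1.85, 0.532 and 0.947 FPKM and at 0.157, 0.501 and 0.258 FPKM. Tnfrsf17 (BCMA), a receptor of plasma cells for BAFF and APRIL, had 3, 2 and 3 reads in the controls and 1, 0 and 0 reads in the libraries labelled iECKO. In the Lats2 libraries, Tnfrsf19 (TROY), a receptor of epithelial and neural progenitors, was at 1.35 and 1.09 FPKM in the controls, or 32 and 31 reads, and at 0.0555 and 0.210 FPKM in the libraries labelled iECKO, or 1 and 5 reads. Other members under the filter were apart there too. Lta, Ngfr, Tnfrsf14, Tnfrsf18, Tnfsf8, Tnfsf13b and Tnfsf15 were lower, and Tnfrsf11b and Tnfsf11 higher, in the libraries labelled iECKO.

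Superfamily genes with other names were read as well. Eda2r, the receptor of the A2 form of ectodysplasin, was at 0.273 and 0.257 FPKM in the Lats2 controls and at 1.08 and 0.852 FPKM in the libraries labelled Lats2 iECKO. Relt was at 12.3 to 15.6 FPKM in the Yap1/Taz libraries and at 0.445 to 2.00 FPKM in the other 10. Eda and Edar stayed under 0.3 FPKM in all 16 libraries.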
